A study of Mus musculus with 6 samples.

Results

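The JAK kinases and STAT transcription factors carry cytokine signals from the cell surface to the nucleus, and 9 of their genes are described here, Jak1, Jak2, Jak3, Tyk2, Stat3, Stat4, Stat5a, Stat5b and Stat6. A probe set, a group of oligonucleotides on the array that is read as 1 value, was taken where the platform annotation gave exactly 1 of these symbols. This gave 19 of the 45037 probe sets tested, for 9 of the 18193 genes named, and no dim probe set was removed. Jak3 and Stat4 had 1 probe set each and the other 7 genes had 2 to 4.

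The cells were CD4+CD25- T cells from lymph nodes of C57BL/6 mice, grown for 2 days with plate-bound anti-CD3 and anti-CD28, 200 U/ml of IL-2 and 5 ng/ml of TGF-β1, conditions that steer them towards regulatory T cells. The 3 E47 samples carried a retrovirus encoding E47-ER, and the 3 control samples carried a bHLH-ER construct. E47 is an E protein, a transcription factor that binds DNA at E-box sites. Both groups were sorted for CD4 and for Thy1.1 and then kept for 6 hours with IL-2, both antibodies and 1 µM tamoxifen, which lets an ER fusion protein enter the nucleus. Each of 3 independent experiments gave 1 E47 and 1 control sample, from mice of 7, 8 and 9 weeks with 3, 3 and 4 animals pooled, so a difference between experiments cannot be told apart from a difference in age. What the bHLH-ER construct holds beyond its name is not given, both constructs came from a virus, and no sample without tamoxifen was analysed here.

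As background, a JAK is a tyrosine kinase bound to the inner tail of a cytokine receptor chain. When a cytokine brings 2 chains together, the JAKs phosphorylate each other and the receptor, a STAT docks there, is phosphorylated, pairs with another STAT and enters the nucleus. In T cells STAT5 carries the IL-2 signal that maintains Treg cells, STAT3 serves Th17 cells, STAT4 carries IL-12 signals in Th1 cells and STAT6 carries IL-4 signals in Th2 cells. Arrays measure the RNA of these genes, and phosphorylation, on which their activity depends, was not measured. Whether fewer cells held a transcript or each cell held less of it cannot be told apart in such bulk samples.

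Before the results, the arrays were compared. The 6 arrays correlated at 0.987 to 0.996 on the log2 scale, and their median intensities lay between 34.3 and 35.4. The 2 arrays of experiment 2 stood together, since their deviations from the group means correlated at 0.52, against 0.088 and 0.31 for the pairs of experiments 1 and 3. Of the T cell markers 6 of 7 were measured, and 0 were dimmer than the median probe set. Their summed intensity was 19490 to 22444 in E47 arrays and 16205 to 19696 in control arrays, and Thy1 was the 1 member called (log2 fold change 0.82, adjusted p = 0.0498 in the paired fit and 0.428 without the block). Thy1 is also the gene of the Thy1.1 protein used to sort the cells, and the source of its signal was not tested. The other log2 fold changes were 0.39 for Cd3g, 0.11 for Cd3d, 0.02 for Cd4, -0.04 for Cd3e and -0.31 for Cd5. The summed intensity of 3 B cell markers was 73.8 to 105.9 in E47 arrays and 79.7 to 119.5 in control arrays, that of 4 myeloid markers 143 to 167 in E47 and 162 to 169 in control arrays. The 4 Treg markers summed to 5007 to 5953 in E47 and 5872 to 6129 in control arrays, and among them Foxp3 was highest in experiment 2 in both groups (7.83 in E47 and 8.16 in control). The 2 CD8 markers summed to 189 to 327 in E47 and 140 to 209 in control arrays, the 1 NK cell marker measured to 12.96 to 13.63 in E47 and 13.95 to 14.78 in control arrays, and the 2 dendritic cell markers to 49.0 to 57.2 in E47 and 51.1 to 64.9 in control arrays. The part of any of these in the values below was not tested.

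None of the 9 genes passed the test. The E47 and control arrays were compared in limma with the experiment as a block (the paired fit), with Benjamini-Hochberg adjustment over all 45037 probe sets and a threshold of 0.05. Over all probe sets 0.238% passed upwards and 0.0333% downwards, and 0 of the 19 JAK and STAT probe sets passed. Without the block 0.115% of all probe sets passed in either direction, and again 0 of the 19. At an unadjusted p under 0.05 in the paired fit there were 5 lower and 1 higher among the 19, while 4.74% of all probe sets were lower and 4.33% higher by that rule. The 5 lower ones were both probe sets of Jak2, both of Stat5a and the 1 of Stat4, and the higher one belonged to Stat3.

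The 19 log2 fold changes had a median of -0.02, the same as the -0.02 over all probe sets, and a median size of 0.12 against 0.09 over all. They divided into 9 above 0 and 10 below it. All 19 probe sets were brighter than the median probe set, whereas the values and shares over all probe sets take in the dimmer ones. For 15 of the 19 the 95% confidence interval lay inside a log2 fold change of -0.5 to 0.5. Only the 2 Jak2 probe sets had a log2 fold change of -0.5 or lower, which 0.422% of all probe sets had.

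**Figure D1:**
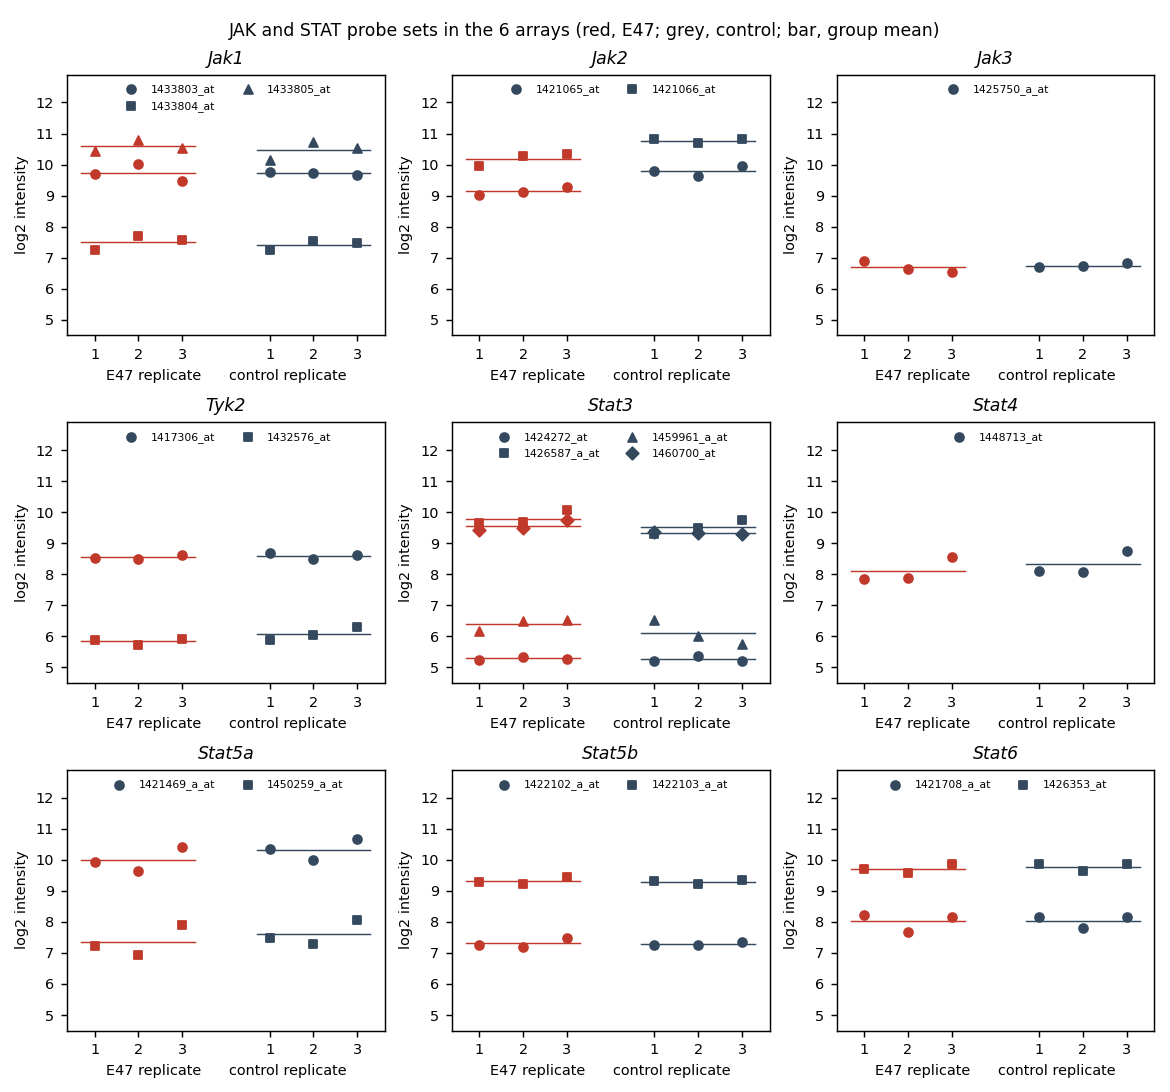
Log2 intensity (vertical axis) of every JAK and STAT probe set in each array (horizontal axis, E47 replicates 1 to 3 in red, then control replicates 1 to 3 in grey), with 1 panel per gene, 1 marker shape per probe set and a bar at each group mean. Both Jak2 probe sets sit lower in all 3 E47 arrays than in all 3 control arrays, and the Stat4 and Stat5a probe sets are highest in replicate 3 of both groups.

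Jak2, the kinase of the receptors for IL-3, GM-CSF, IL-12, IL-23 and interferon γ, showed the largest differences of the 9 genes. Its probe set 1421065_at had log2 levels of 9.04, 9.13 and 9.27 in E47 replicates 1 to 3, against 9.81, 9.64 and 9.94 in control replicates 1 to 3. As intensities these were 525, 559 and 619 in E47 cells, against 896, 799 and 983 in control cells. Every E47 array thus lay below every control array. The log2 fold change was -0.65 (SE 0.09, 95% interval -0.87 to -0.43), an E47 level 0.637 times that of control, with an adjusted p of 0.091 in the paired limma fit.

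The brighter Jak2 probe set, 1421066_at, gave 9.96, 10.28 and 10.35 in E47 replicates 1 to 3, against 10.81, 10.70 and 10.82 in control replicates 1 to 3. Again the groups did not overlap. Its log2 fold change was -0.58 (SE 0.11, interval -0.86 to -0.30), 0.669 times control, at an adjusted p of 0.211 in the paired fit. In experiments 1, 2 and 3 the differences between E47 and control were -0.77, -0.52 and -0.67 for the first probe set and -0.85, -0.42 and -0.47 for the second. Both Jak2 probe sets thus gave the same direction in each experiment, with the widest gap in experiment 1. Among all probe sets 6.65% had every E47 array below every control array and 4.57% every E47 array above.

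Whether Jak2 passes depends on how the data are summarised. When the log2 values of a gene's probe sets were averaged and adjusted over genes, Jak2 fell (log2 fold change -0.62, SE 0.09, adjusted p = 0.0297), the 1 of the 9 genes to pass, where 0.368% of the 18193 genes fell by that summary. With the variance prior allowed to follow brightness and to be robust to outlying genes, both Jak2 probe sets passed in limma (adjusted p = 0.00317 and 0.014), as did Stat5a 1421469_a_at (0.0482), where 0.464% of all probe sets fell with those priors. Without the block the adjusted p was 0.182 for 1421065_at and 0.342 for 1421066_at. With 1 experiment left out of the paired fit it ran from 0.0704 (without experiment 1) to 0.588 (without experiment 3) for 1421065_at. Over the 17 alternatives for that probe set the adjusted p lay between 0.00317 and 0.653, while the log2 fold change stayed between -0.73 and -0.58.

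The Jak2 promoter is shown because E47 binds E-boxes, the letters CANNTG, and Jak2 was the gene with the largest difference. The 250 bases before its annotated start lie at chr19:29251553-29251802 on the plus strand of GRCm38.p6 (RefSeq) and hold 1 E-box, with the letters CAGCTG in capitals, beginning 143 bases before the start.
Jak2: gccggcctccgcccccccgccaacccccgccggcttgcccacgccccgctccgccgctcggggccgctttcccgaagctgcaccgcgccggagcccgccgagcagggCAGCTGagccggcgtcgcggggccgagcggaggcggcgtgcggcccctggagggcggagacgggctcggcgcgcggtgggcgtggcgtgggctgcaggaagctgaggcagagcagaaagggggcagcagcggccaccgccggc
Over all 32851 RefSeq promoters of this length, 66.2% hold CANNTG and 13% hold CAGCTG, searched on both strands; CAGCTG is itself one of the CANNTG words. Such a match is a description of letters, and binding of E47 was not measured.

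All 9 genes matched the promoter table, with 12 annotated starts. Of these 12 promoters 7, from 6 genes, hold CANNTG, 4 hold CAGCTG and 2 hold CACCTG on 1 of the strands (17.2% of all promoters hold CACCTG). The promoters of Jak3, Tyk2 and Stat6 hold no CANNTG in this window. The other windows around CAGCTG or CACCTG are printed below to set them beside that of Jak2, each 30 bases long, on the strand of the gene, with the E-box in capitals (CAGGTG is CACCTG read on the other strand). Each of these lies inside the annotated span of its gene, while the Jak2 window lies outside its gene. The Stat4 gene spans chr1:51987106-52107189 and the Stat5b gene chr11:100780731-100859004, so their windows precede annotated starts within the gene.
Stat3 (chr11:100939539-100939568, minus strand): gggtggcctagcCAGCTGgccattccttaa
Stat4 (chr1:52008105-52008134, plus strand): agtaactttgttCACCTGcctggtcctcaa
Stat5a (chr11:100859582-100859611, plus strand): taggaccagcttCAGGTGtgacccttctag
Stat5a (chr11:100860424-100860453, plus strand): gtctatcggaggCAGCTGacctttgaggag
Stat5b (chr11:100822592-100822621, minus strand): gtctgtctgaagCAGCTGaccttttagaag
The CAGCTG windows of Stat5a and Stat5b share 25 of 30 positions. The STAT binding word TTCNNNGAA occurs in 0 of the 12 promoters, against 7.02% of all promoters.

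The other JAK genes showed no difference larger than the spread between experiments. Jak1, which serves the IL-2 family, the interferon and the IL-6 family receptors, was measured by 3 probe sets. Its brightest, 1433805_at, had 10.44, 10.80 and 10.53 in E47 replicates 1 to 3, against 10.14, 10.73 and 10.54 in control replicates 1 to 3. The groups overlapped, and the log2 fold change was 0.12 (SE 0.10, interval -0.12 to 0.36, adjusted p = 0.733 in the paired fit). The other Jak1 probe sets had log2 fold changes of 0.01 (1433803_at, interval -0.28 to 0.30) and 0.08 (1433804_at, interval -0.13 to 0.29). The differences of 1433803_at, 1433804_at and 1433805_at were -0.08, -0.01 and 0.31 in experiment 1, 0.29, 0.18 and 0.08 in experiment 2 and -0.19, 0.07 and -0.01 in experiment 3. The 3 Jak1 probe sets thus had the same sign in experiment 2 and not in experiments 1 and 3.

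Jak3, the kinase bound to the common γ chain of the IL-2, IL-4, IL-7, IL-9, IL-15 and IL-21 receptors, had 6.89, 6.64 and 6.56 in E47 replicates 1 to 3, against 6.70, 6.73 and 6.82 in control replicates 1 to 3. These overlapped, with a log2 fold change of -0.05 (SE 0.11, interval -0.33 to 0.22, adjusted p = 0.912). Tyk2, which serves the type I interferon, IL-12 and IL-10 receptors, had 8.53, 8.48 and 8.62 in E47 arrays on its brighter probe set 1417306_at, against 8.67, 8.48 and 8.62 in control arrays. On this probe set experiments 2 and 3 thus gave almost equal levels in both groups, and the log2 fold change was -0.05 (SE 0.08, interval -0.26 to 0.16, adjusted p = 0.887). The dimmer Tyk2 probe set 1432576_at gave -0.23 (SE 0.10, interval -0.49 to 0.03, adjusted p = 0.589). Its differences were -0.0031, -0.32 and -0.36 in experiments 1 to 3, so the 2 Tyk2 probe sets differed in experiments 2 and 3.

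**Figure D2:**
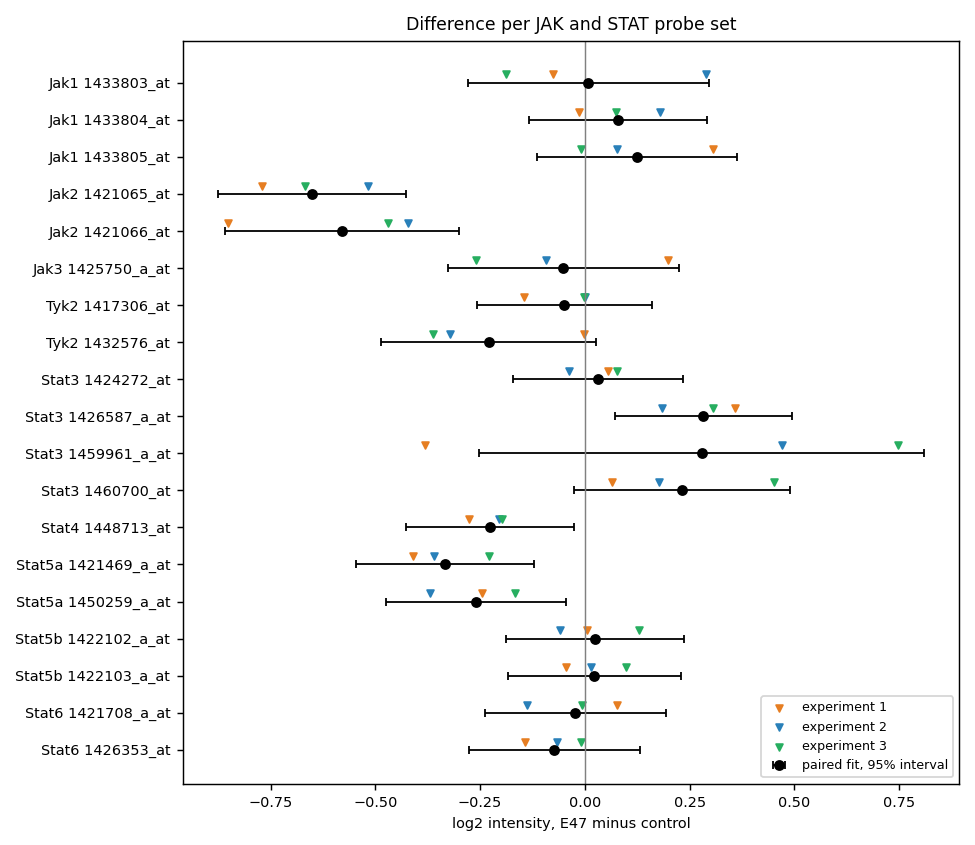
Log2 intensity of E47 minus control (horizontal axis) for each JAK and STAT probe set (vertical axis), with triangles for the 3 experiments and a black point with its 95% interval from the paired fit. The Jak2 estimates lie at -0.65 and -0.58, both Stat5a estimates lie below 0, and the 2 brightest Stat3 probe sets lie above 0 in all 3 experiments.

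The paralogs Stat5a and Stat5b, neighbouring genes on chromosome 11 whose products both act downstream of IL-2, gave different values. Stat5a 1421469_a_at had 9.92, 9.62 and 10.42 in E47 replicates 1 to 3, against 10.33, 9.98 and 10.65 in control replicates 1 to 3. The groups overlapped because the 3 experiments lay apart, but each E47 array was below the control array of its own experiment, by 0.41, 0.36 and 0.23 on the log2 scale. The log2 fold change was -0.33 (SE 0.09, interval -0.55 to -0.12), 0.793 times control, at an adjusted p of 0.366 in the paired fit and 0.879 without the block. The second Stat5a probe set, 1450259_a_at, had 7.23, 6.93 and 7.89 in E47 replicates and 7.47, 7.30 and 8.06 in control replicates. It too was lower in each of the 3 experiments, with a log2 fold change of -0.26 (SE 0.09, interval -0.47 to -0.05, adjusted p = 0.481). With single arrays left out of the fit without the block, the log2 fold change lay between -0.55 (without E47 array 3) and -0.15 (without E47 array 2) for 1421469_a_at and between -0.53 (without E47 array 3) and -0.036 (without control array 3) for 1450259_a_at.

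Stat5b 1422103_a_at had 9.28, 9.22 and 9.43 in E47 replicates 1 to 3, against 9.32, 9.21 and 9.33 in control replicates 1 to 3. The groups overlapped, and the log2 fold change was 0.02 (SE 0.08, interval -0.18 to 0.23, adjusted p = 0.95). The dimmer probe set 1422102_a_at gave 0.03 (SE 0.09, interval -0.19 to 0.24). The difference between the Stat5a and Stat5b fold changes was not tested, and where their probes lie, or whether a probe for 1 paralog also binds the other, was not analysed here.

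Stat3, which acts downstream of IL-6, IL-10 and IL-21, had 4 probe sets. The brightest, 1426587_a_at, had 9.66, 9.67 and 10.06 in E47 replicates 1 to 3, against 9.30, 9.48 and 9.75 in control replicates 1 to 3. The E47 array was the higher one in each experiment, although E47 arrays 1 and 2 lay below control array 3. The log2 fold change was 0.28 (SE 0.09, interval 0.07 to 0.49), 1.22 times control, with an adjusted p of 0.443 in the paired fit.

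Stat3 1460700_at had 9.42, 9.49 and 9.76 in E47 replicates and 9.35, 9.32 and 9.31 in control replicates. Its groups did not overlap, the only upward case among the 19, with a log2 fold change of 0.23 (SE 0.10, interval -0.03 to 0.49, adjusted p = 0.588) that was 0.12 without experiment 3. Stat3 1459961_a_at gave 0.28 with the widest interval of the 19 (-0.25 to 0.81), since its differences were -0.38, 0.47 and 0.75 in experiments 1 to 3, and it was 0.61 without experiment 1 and 0.044 without experiment 3. The dimmest, 1424272_at, near the median brightness of all probe sets, gave 0.03 (interval -0.17 to 0.23). The 4 Stat3 fold changes were thus all above 0 and none passed.

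Stat4 had log2 levels of 7.84, 7.87 and 8.56 in E47 replicates 1 to 3, against 8.11, 8.08 and 8.76 in control replicates 1 to 3. Each E47 array was lower than its own control, by 0.28, 0.21 and 0.20 on the log2 scale, while the groups overlapped widely because of experiment 3. The log2 fold change was -0.23 (SE 0.08, interval -0.43 to -0.03), 0.855 times control, with an adjusted p of 0.514 in the paired fit and 0.927 without the block. With single arrays left out of the fit without the block, the Stat4 value lay between -0.46 (without E47 array 3) and -0.0060 (without control array 3). Stat6 1426353_at had 9.70, 9.57 and 9.85 in E47 replicates and 9.85, 9.64 and 9.86 in control replicates, a log2 fold change of -0.07 (SE 0.08, interval -0.28 to 0.13, adjusted p = 0.822). The other Stat6 probe set, 1421708_a_at, gave -0.02 (SE 0.09, interval -0.24 to 0.19).

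Counted over the experiments, 7 of the 19 probe sets were lower in E47 in all 3 and 2 were higher in all 3, where 17.5% and 13.5% of all probe sets did so. The 7 belonged to Jak2 (2), Stat5a (2), Stat4, Tyk2 1432576_at and Stat6 1426353_at. Some of these differences were close to 0: those of Tyk2 1432576_at were -0.0031, -0.32 and -0.36 in experiments 1 to 3, and those of Stat6 1426353_at -0.14, -0.07 and -0.01. The groups did not overlap for 2 of the 19 downwards (6.65% of all probe sets) and for 1 upwards (4.57%).

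**Figure D3:**
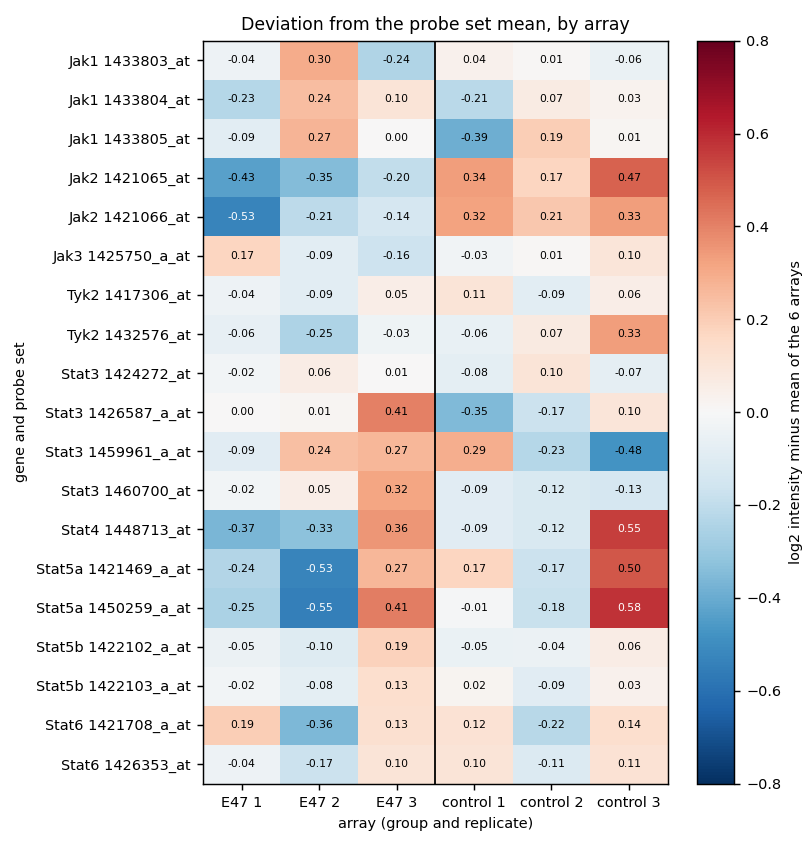
Deviation of each array (horizontal axis, E47 arrays left of control arrays) from the mean of the 6 arrays, in log2 intensity, for each JAK and STAT probe set (vertical axis), printed in each cell and coloured from blue (below) to red (above). Jak2 separates the groups, whereas Stat4 and Stat5a are above their mean in replicate 3 of both groups.

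For Stat4 and Stat5a the experiments differed by more than the groups did. The mean of the 2 arrays of an experiment was 7.98, 7.98 and 8.66 for Stat4 in experiments 1 to 3, a range of 0.68 on the log2 scale. For Stat5a 1421469_a_at it was 10.12, 9.80 and 10.54, and for 1450259_a_at 7.35, 7.12 and 7.97. Experiment 3 was thus the highest for both genes, and experiment 2 the lowest for Stat5a. In an F test of the experiments in the paired fit the adjusted p was 0.0742 for Stat4 and 0.0982 and 0.0664 for Stat5a. Over all probe sets 0.604% passed this test and 0 of the 19 did. Without experiment 1, the 3 probe sets of Stat4 and Stat5a passed it between experiments 2 and 3, and so did 2.49% of all probe sets. At an unadjusted p under 0.05 there were 7 of the 19, against 12.7% of all probe sets. Beside Stat4 and Stat5a, these were Jak1 1433805_at (10.29, 10.76 and 10.54), Jak1 1433804_at, Stat3 1426587_a_at (9.48, 9.58 and 9.91) and Stat6 1421708_a_at (8.18, 7.73 and 8.16). Both Jak2 probe sets varied little between experiments, with ranges of 0.22 and 0.20.

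**Figure D4:**
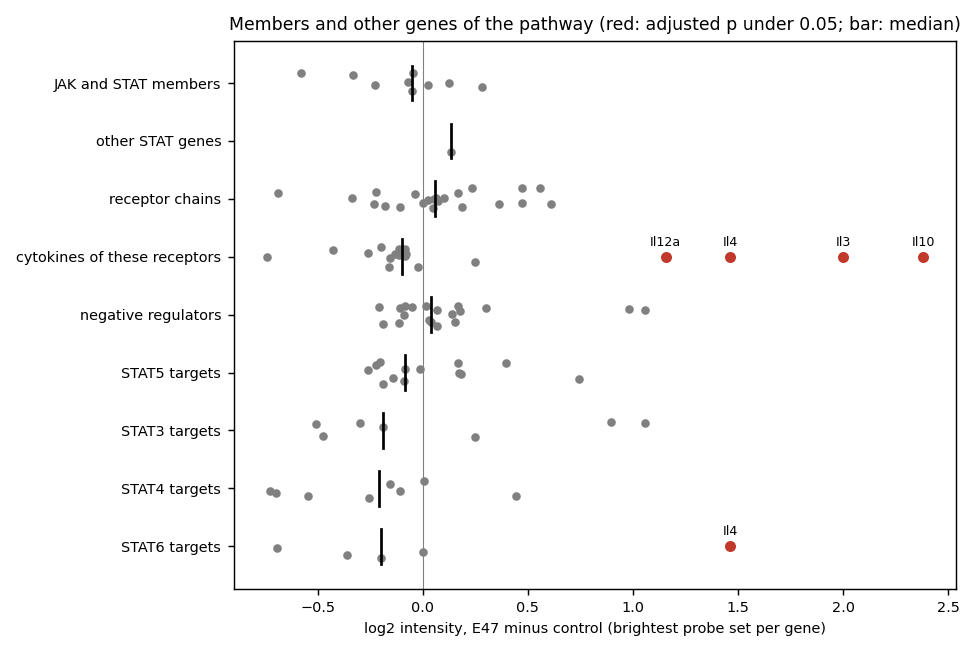
Log2 intensity of E47 minus control (horizontal axis) in the paired fit for the brightest probe set of each gene, by gene list (vertical axis), with a bar at the median and red points for an adjusted p under 0.05. The red points are the cytokine genes Il10, Il3, Il4 and Il12a, and Il4 stands in 2 lists.

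Other genes of the pathway were read from lists of its ligands, receptor chains, inhibitors and STAT targets. They held 89 genes, of which 82 were measured with 171 probe sets, and 4 probe sets rose and 0 fell, where 0.238% of all probe sets rose. The lists were drawn up with earlier results of these data already known for Jak2, Socs3, Pim2, Foxp3, Il10 and Il4. Of these genes Il10 and Il4 are among the 4 that rose. The count of 4 thus cannot be weighed against that share. The median log2 fold change over the 82 genes was -0.01, and -0.03 over all genes. Stat2, which carries interferon signals, had log2 fold changes of 0.13 (adjusted p = 0.742) and 0.27 (0.614) on its 2 probe sets.

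The 4 risers all stood in the cytokine list, whose genes were chosen as ligands of receptors that use JAKs. Of its 18 genes measured, 5 were higher and 13 lower by the brightest probe set. Il10, whose receptor uses Jak1 and Tyk2, had 8.51, 7.56 and 8.75 in E47 arrays, against 6.24, 5.27 and 6.18 in control arrays (log2 fold change 2.38, SE 0.10, adjusted p = 0.00249). Il3, whose receptor uses Jak2, had 10.53, 12.03 and 10.69 in E47 arrays, against 8.54, 9.83 and 8.89 in control arrays (log2 fold change 2.00, SE 0.10, adjusted p = 0.00377). Both were apart between the groups, and Il3 was brightest in experiment 2. Il4, whose receptor uses Jak1 and Jak3 and activates STAT6, averaged 7.09 ± 0.17 in E47 and 5.63 ± 0.12 in control arrays (SD, n = 3 each; limma adjusted p = 0.015). Il12a, a subunit of IL-12, averaged 6.77 ± 0.61 in E47 and 5.61 ± 0.60 in control arrays (log2 fold change 1.16, limma adjusted p = 0.0213). The other 14 cytokine genes did not pass, with Il9, a T cell growth factor, closest (-0.74, adjusted p = 0.0871), and the list's median was -0.10. Without the block only Il4 passed (adjusted p = 0.00926), with 0.108 for Il10, 0.428 for Il3 and 0.771 for Il12a. Without experiment 3 all 4 calls of the paired fit were lost (adjusted p = 0.0606 for Il10, 0.0708 for Il3, 0.234 for Il4 and 0.225 for Il12a), and without experiment 2 those of Il4 (0.131) and Il12a (0.146).

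Of 22 receptor chain genes 0 passed, with a median log2 fold change of 0.06. Il12rb1, the IL-12 receptor chain that binds Tyk2, had 7.76, 6.44 and 7.57 in E47 arrays, against 8.41, 7.24 and 8.20 in control arrays (log2 fold change -0.69, adjusted p = 0.067). For Ifnar1, a chain of the type I interferon receptor, it was 0.56 (adjusted p = 0.148). Il7r, the IL-7 receptor chain, had 0.61 on its brightest probe set (adjusted p = 0.281) and 0.56 on another (0.114). Among 19 inhibitors 0 passed and the median was 0.04, with 12 higher and 7 lower by the brightest probe set. The log2 fold change of Socs3, which blocks JAKs at gp130 family receptors, was 1.06 (adjusted p = 0.067), and that of Usp18, a brake on interferon receptors, 0.98 (0.396).

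The target lists of the STATs were read beside the STATs themselves. Of 13 STAT5 targets 0 passed (median -0.09), with 5 higher and 8 lower by the brightest probe set. Among these the lowest p belonged to the survival kinase Pim2 (0.75, adjusted p = 0.0951) and to Bcl2 (0.40, 0.423). A dimmer probe set of the cyclin gene Ccnd2 had 0.36 (adjusted p = 0.365). Of 7 STAT3 targets 0 passed (median -0.19), with 3 higher and 4 lower by the brightest probe set. The lowest p there belonged to Bcl3, a cofactor of NF-κB (0.90, adjusted p = 0.0582), and Socs3. Of 8 STAT4 targets 0 passed (median -0.21), with 2 higher and 6 lower by the brightest probe set, the highest at a log2 fold change of 0.44. Both chains of the IL-18 receptor were lower, Il18rap by a log2 fold change of -0.73 (adjusted p = 0.0802) and Il18r1 of -0.70 (0.122). Of 5 STAT6 targets Il4 passed, Il24 had -0.69 (adjusted p = 0.0869) and Gata3 -0.36 (0.443), with a list median of -0.20. By the brightest probe set 1 of these 5 was higher and 4 were lower. Some genes, among them Socs3, Il4 and Il12rb2, stand in more than 1 list.

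The genes whose levels followed Jak2 1421065_at most closely over the 6 arrays were Hivep2 (r = 0.992), Nsf (0.99), Trim27 (0.99), Rgs2 (0.985) and Cflar (0.983), taken from 19751 probe sets of other genes brighter than the median. Their own log2 fold changes were -0.29, -0.15, -0.20, -0.99 and -0.46, a direction that choosing them by likeness to Jak2 fixes. Among the 5, the Rgs2 call of the paired limma fit (adjusted p = 0.0272) was lost without the block (0.211). The 2 Jak2 probe sets correlated with each other at 0.964. Of the 19751 probe sets 34 had r above 0.95 with 1421065_at. The 5 named genes were picked as the highest of these, so their r cannot be weighed against 0.964. These coefficients describe 6 arrays that also share group and experiment.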

How the data were processed

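RNA of 6 samples was measured on Affymetrix arrays. The authors deposited 1 linear intensity per probe set and array; they had used RMA, per the submitters' processing notes, which give no version. This method equalises the distributions of arrays, so a shift shared by most genes would not be seen. Here log2 was taken, 64 control probe sets were left out, and 45037 probe sets were fitted with limma 3.58.1 in R 4.3.3 (lmFit, eBayes, two-sided), with group and replicate number as terms, Benjamini-Hochberg adjusted. The design text gives 3 independent experiments with 1 sample of each group, and same-numbered samples share the age of the mice, so the numbers pair the samples. Deviations of same-numbered arrays correlated at 0.088, 0.52 and 0.31. Between arrays of unlike number they correlated at -0.43 to 0.22. The highest of these was E47 array 1 with control array 3, above the 0.088 of E47 array 1 with its own control. The fits were tested on simulated data with log2 changes larger than that of any member, so how well they find changes of the members' size was not tested. Annotation gave 34945 probe sets 1 symbol, 932 several and 9160 none here. Members and lists were chosen with earlier results of these data known. Every member probe set is given; values by array are given for the brightest probe set of each gene and for those at an unadjusted p under 0.01 (and for some others, chosen after their values were seen). From each list came the genes past the threshold and up to 2 others by lowest p of the brightest probe set (Il7r and Ccnd2 were added for a lower p on another probe set); likeness used Pearson's r, 5 genes. Arrays carry no read depth, and 3 per group limit the precision. Alternatives covered the block, replicates, normalization, a brightness filter, a pseudocount of 16, the variance prior and the summary per gene.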

Additional observations from a re-analysis of the deposited data

How the results depend on the processing

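The count of JAK and STAT probe sets past the threshold was 0 in each setting tried except 2. It was 3 with trend and robust variance priors and, counted over genes, 1 with the mean of a gene's probe sets; the cause was not tested. Counts over all probe sets moved more. Against 107 higher and 15 lower with the replicate block, the fit without the block gave 52 and 0 (at an unadjusted p under 0.05 in the paired fit, 2134 were lower), and the random block 89 and 6. Leaving out 1 experiment gave 4 to 486 higher (4 without experiment 3, 486 without experiment 1) and 0 to 65 lower. Without the block, leaving out E47 array 1, 2 or 3 gave 35, 49 or 14 higher and control array 1, 2 or 3 gave 18, 21 or 11, with 0 to 1 lower. Trend and robust priors gave 365 and 209, the brighter probe sets alone 41 lower and the pseudocount 25 lower. Pathway list calls, 4 with the block, were 1 without it, 2 with the random block, 0 to 15 without 1 experiment, 8 among brighter probe sets and 20 with trend and robust priors. The F test between experiments passed for 0 members, and without experiment 1 for 3, the probe sets of Stat4 and Stat5a, where 0.604% and 2.49% of all probe sets passed; that range was 0 to 3.

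Changes of sign fell in probe sets whose log2 fold change in the main fit lay between -0.05 (Jak3) and 0.12 (Jak1 1433805_at). With 1 experiment left out of the paired fit, the log2 fold change ran from -0.13 to 0.11 for Jak1 1433803_at, from -0.18 to 0.052 for Jak3, from -0.027 to 0.067 for Stat5b 1422102_a_at, from -0.016 to 0.056 for Stat5b 1422103_a_at and from -0.072 to 0.035 for Stat6 1421708_a_at. Under quantile normalization Jak1 1433803_at was -0.0041 and Stat5b 1422102_a_at -0.030. Without the block and without E47 array 2, Jak1 1433803_at was -0.14, Jak1 1433804_at -0.022 and Stat6 1421708_a_at 0.15. Without E47 array 3, Jak3 was 0.017, Stat5b 1422102_a_at -0.062 and Stat5b 1422103_a_at -0.038. Without control array 1, Jak1 1433804_at was -0.0070, Jak1 1433805_at -0.041 and Stat6 1421708_a_at 0.030. Without control array 2, Stat5b 1422103_a_at was -0.017, and without control array 3, Jak1 1433803_at was -0.017 and Stat6 1421708_a_at 0.040. The block changed no call of a member. Normalization changed no sign of Jak2, Stat5a, Stat4 or Stat3. The number of arrays limits what could be called.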
